A study of Homo sapiens with 4 samples.

Results

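The long stretches of human chromosome 19 that lie between its tandem gene clusters were compared for CpG methylation (mCG) and for read depth between wild-type (WT) and ZNF274KO cells. The chromosome was divided into windows of 10 kb, called tiles, and 9 spans with its large clusters of zinc finger and other tandem genes were set aside. Some genes of these families lie outside the spans. Zinc finger genes were taken by symbol, as protein-coding genes whose symbols start with ZNF, ZFP, ZSCAN, ZKSCAN, ZIK or ZIM. Those with other symbols were not counted. Outside the spans 39 of them could be tested. These spans run from 9.2 to 9.95, 11.7 to 12.8, 19.8 to 24.3, 36.6 to 38.4, 43.2 to 43.8, 44.3 to 45, 51.3 to 54.3, 54.7 to 56.6 and 57 to 59.13 Mb (hg19). Of the 3942 tiles outside them with any read, 3941 had 20 or more reads in every library, against 282606 such tiles on all autosomes and X. The short arm held 1814 of the 3941 and the long arm 2127, and another 1640 tiles lay inside the spans. The 1 tile that fell short of 20 reads was on the short arm.

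The samples were 4 libraries of HEK293T cells, a line derived from human embryonic kidney, labelled WT 1, WT 2, ZNF274KO 1 and ZNF274KO 2. ZNF274KO cells had lost ZNF274, a KRAB zinc finger protein gene, by CRISPR-Cas9 with a guide on either side of it, followed by puromycin selection and sorting of single cells. WT cells carried no deletion of the gene, and no further allele or agent is named for either group. Whether the 2 libraries of a group came from separate clones, cultures or extractions is not given in the sources used here. Tests therefore measure the spread between these libraries, whose source was not tested and may in part be technical. Depth steps seen in ZNF274KO 1 but not in ZNF274KO 2 are given below. DNA was read by EM-seq (enzymatic methyl sequencing). Its enzymes turn cytosines without methylation into bases read as T, and methylated ones are still read as C. A level of mCG is given as the percentage of C among C and T reads at CpGs, and differences between levels are in percentage points.

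CpG methylation is high over most of the genome, including the bodies of transcribed genes, and low at CpG-rich promoters, where it is associated with silencing. Genes of KRAB zinc finger proteins (KZFPs), many of them on chromosome 19, lie in arrays that carry the repressive histone mark H3K9me3 over their 3′ ends, and ZNF274 is known to bind there. The stretches between the arrays are rich in housekeeping genes, receptors, enzymes and smaller gene families. The number of reads over a region follows how much of its DNA was present, and also base composition and mappability.

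Read counts at CpGs summed to 241921466 to 295509110 per library on the autosomes and X, with a median of 8 to 10 reads per CpG, where a read across several CpGs is counted at each. The genome-wide level was 59.3%, 60.4%, 60.2% and 58.4% in WT 1, WT 2, ZNF274KO 1 and ZNF274KO 2. The body of ZNF274, inside the last span, carried 5158, 4275, 0 and 14 reads in the same order, which fits the labels.

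Reference sequence is shown for 2 stretches of 300 bases, 1 from the tile with the largest rise of mCG among those over ZNF667 and 1 from the tile that fell. Each was chosen as the stretch of its tile with the largest difference among those with at least 4 CpGs and 20 reads in every library, so its values describe it and were not tested. The sequences are the plus strand of GRCh37, 5′ to 3′, and capitals mark the CG dinucleotides at which methylation was read. The stretch chr19:56973900-56974199 lies in an intron of ZNF667.
ZNF667 stretch: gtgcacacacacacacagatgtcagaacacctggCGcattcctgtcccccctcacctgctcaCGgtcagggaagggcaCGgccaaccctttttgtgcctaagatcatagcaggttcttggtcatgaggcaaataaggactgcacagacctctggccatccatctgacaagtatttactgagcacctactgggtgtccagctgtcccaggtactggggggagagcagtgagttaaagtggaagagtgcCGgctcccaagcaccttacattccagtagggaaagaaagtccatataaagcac
Its 4 CpGs were at 2.70% and 4.26% in WT 1 and WT 2, and at 53.3% and 56.1% in ZNF274KO 1 and ZNF274KO 2. It has few CpGs and was almost unmethylated in WT. The stretch chr19:30865914-30866213, in an intron of ZNF536, is far denser, with 41 CpGs.
ZNF536 stretch: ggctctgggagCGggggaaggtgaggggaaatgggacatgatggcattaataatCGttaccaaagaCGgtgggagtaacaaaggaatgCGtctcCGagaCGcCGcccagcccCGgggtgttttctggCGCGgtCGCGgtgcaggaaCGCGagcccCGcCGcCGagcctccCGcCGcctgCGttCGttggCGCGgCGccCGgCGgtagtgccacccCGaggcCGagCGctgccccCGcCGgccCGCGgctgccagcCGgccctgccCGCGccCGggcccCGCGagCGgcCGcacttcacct
It was the other way round, at 49.9% and 48.5% in WT 1 and WT 2 and at 13.1% and 12.2% in ZNF274KO 1 and ZNF274KO 2.

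The first comparison asked whether mCG outside the clusters differed between the genotypes. Over the short arm the pooled level was 69.6% and 68.5% in WT 1 and WT 2, and 69.6% and 67.8% in ZNF274KO 1 and ZNF274KO 2. The WT mean was 69.0% ± 0.796 and the ZNF274KO mean 68.7% ± 1.24 (SD, n = 2). The groups overlapped, with a difference of -0.351 points (two-sided exact permutation test, p = 0.667). Over the long arm the libraries stood at 64.9%, 64.0%, 65.6% and 63.7% in the same order. The means of 64.4% ± 0.625 and 64.6% ± 1.39 (SD, n = 2) differed by 0.225 points, again with overlap (exact permutation test, p = 1.0). The smallest p that 2 against 2 libraries can give is 0.333. Neither difference exceeded the spread between replicates, and both changed sign with single libraries. On the short arm the difference was 0.212 points without WT 1 and 0.529 without ZNF274KO 2, and on the long arm -0.217 without WT 2 and -0.756 without ZNF274KO 1.

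Inside the spans the same libraries gave 40.2%, 39.6%, 66.0% and 58.5% on the short arm, a difference of 22.4 points, and 47.9%, 47.6%, 58.4% and 54.3% on the long arm, a difference of 8.59 points. The inside level minus the outside level was the higher in each ZNF274KO library on either arm, with no overlap (exact permutation test, p = 0.333, the smallest possible). The rest of the genome without chromosome 19 differed by -0.638 points, with overlap between the groups. Within the outside tiles the long arm lay below the short arm in every library, by -4.75, -4.51, -3.95 and -4.15 points in WT 1, WT 2, ZNF274KO 1 and ZNF274KO 2. This gap was smaller in both ZNF274KO libraries, by 0.576 points, and the groups did not overlap (exact permutation test, p = 0.333).

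CpGs were also split by what the annotation places there. In promoters, taken as 1 kb either side of the start of protein-coding genes, WT averaged 22.4% ± 0.558 and ZNF274KO 21.7% ± 0.916 on the short arm, and the 2 groups 28.8% ± 0.501 and 28.7% ± 1.33 on the long arm (SD, n = 2). In the rest of gene bodies it was 77.3% ± 0.671 and 77.0% ± 1.02 on the short arm and 75.8% ± 0.652 and 75.5% ± 0.833 on the long arm. Between genes it was 67.1% ± 0.918 and 67.4% ± 1.19 on the short arm. The largest difference of the 6 was between genes of the long arm, where WT 1, WT 2, ZNF274KO 1 and ZNF274KO 2 stood at 56.3%, 55.6%, 58.7% and 56.1%, and there too the groups overlapped (exact permutation test, p = 0.667).

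Single tiles were then tested to find where mCG differed. On the short arm 1710 of 1814 tiles (94.3%) and on the long arm 1821 of 2127 (85.6%) had group means within 5 points of each other. At an adjusted p under 0.05 in the quasi-likelihood test of edgeR, fitted over the whole genome with Benjamini-Hochberg adjustment, 2 tiles of the short arm (0.110%) were called, both higher in ZNF274KO, and 23 of the long arm (1.08%), of which 22 were higher and 1 was lower. Of all 282602 tiles tested in the genome, 0.504% were called, 0.495% as higher and 0.0092% as lower. Of these 1424 calls, 410 lay inside the spans of the short arm and 246 inside those of the long arm, and without chromosome 19 the share was 0.268%. At an unadjusted p under 0.05 there were 140 on the short arm and 258 on the long arm, against 6.5% of all tiles. The groups were apart, with both ZNF274KO libraries the higher, in 253 short-arm tiles (13.9%) and 493 long-arm tiles (23.2%), where 12.1% of all tiles did so. They lay below in 399 (21.996%) and 386 (18.1%), where 24.2% of all tiles did so.

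**Figure D1:**
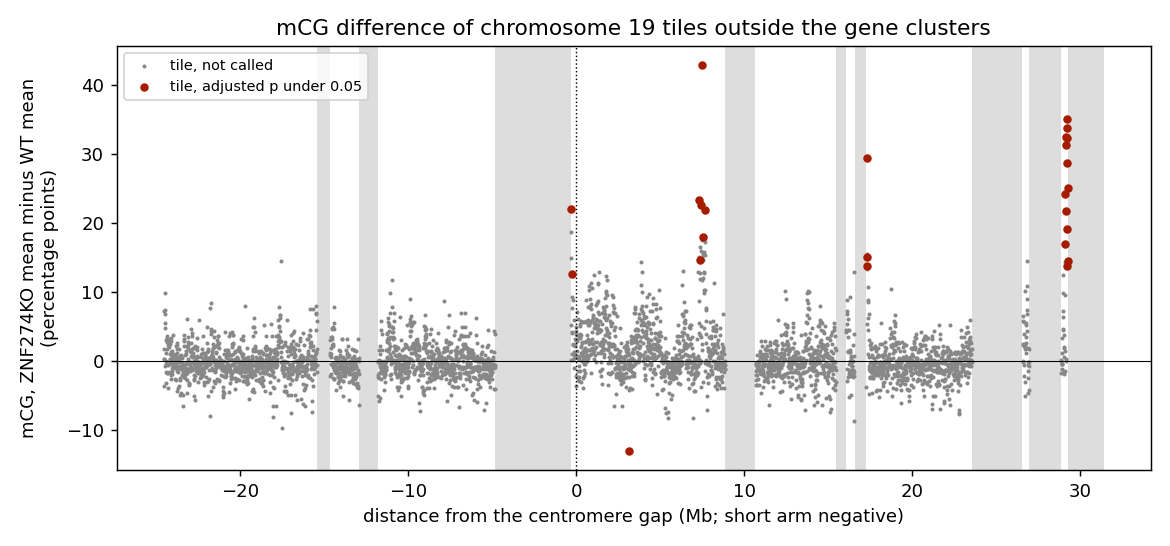
Difference in mCG (ZNF274KO mean minus WT mean, percentage points) of each of the 3941 tiles outside the clusters, against distance from the centromere gap in Mb, with the short arm negative. Grey bands are the 9 spans left out and red points the 25 called tiles. The called rises sit in 4 narrow groups, and 1 called tile lies below 0.

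The plot of the difference along the arms shows the called tiles in a few places. All 24 rises lay in 4 stretches, which were picked out after their values were seen and are therefore described without a test. The stretch from 56.6 to 57 Mb, between the last spans, held 13 among 40 tiles. The stretch from 35 to 35.5 Mb held 6 among 50, the 100 kb that follow the span ending at 45 Mb held 3 among 10, and the stretch from 24.3 Mb to the centromere held 2 among 33. As the stretches were picked for their rises, no called rise was left in the other 1781 short-arm and 2027 long-arm tiles. The levels of these tiles were 69.3% ± 0.806 and 68.9% ± 1.24, and 64.8% ± 0.661 and 64.8% ± 1.32, in WT and ZNF274KO (SD, n = 2). In 239 and 421 of them the lower ZNF274KO library still exceeded the higher WT library, where 12.1% of all tiles did so. How many showed the reverse is not given for these tiles alone. Called or not, 72 tiles of the whole long arm rose by 10 points or more and 1 fell by as much. On the short arm 6 rose and 0 fell so far.

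Between 56.6 and 57 Mb lie the zinc finger genes ZNF444, ZSCAN5B, ZSCAN5C, ZSCAN5A, ZNF582, ZNF583 and ZNF667. The pooled level there was 60.97% and 61.9% in WT 1 and WT 2, and 69.0% and 66.4% in ZNF274KO 1 and ZNF274KO 2, and 25 of the 40 tiles had both ZNF274KO libraries above both WT libraries. The rise was not even along the stretch. Over ZNF444 the 4 libraries overlapped (body at 80.3%, 78.7%, 79.7% and 76.1%, adjusted p = 0.816 in edgeR). The called tiles ran from ZSCAN5A to the end of the stretch, broken by 2 tiles in ZSCAN5A that did not pass. They were also broken by 2 tiles between those at 56890001 and 56920001, where the groups overlapped. The first of these 2 holds the starts of both ZNF582 and ZNF583, and the second lies inside ZNF583. The narrower promoter window of ZNF583 was called, as given below.

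The 2 largest rises of this stretch were over ZNF667, a KZFP gene on the minus strand from 56950694 to 56989434. The tile at 56970001 to 56980000, with 85 CpGs, stood at 4.93%, 4.42%, 45.09% and 34.4% in WT 1, WT 2, ZNF274KO 1 and ZNF274KO 2 (adjusted p = 6.99e-06 in edgeR). Its neighbour at 56960001 to 56970000 went from 3.37% and 3.54% to 40.5% and 34.1% (adjusted p = 5.67e-06), and the tile at 56950001 to 56960000 from 2.02% and 3.41% to 41.5% and 28.7% (adjusted p = 3.3e-05). These introns and the 3′ end of the gene were nearly bare of methylation in WT, and in all of them ZNF274KO 1 stood above ZNF274KO 2. Past its start, between ZNF667 and the span, the tile at 56990001 to 57000000 went from 21.8% and 19.4% to 49.2% and 42.1% (adjusted p = 0.00094).

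ZNF582, a KZFP gene whose promoter methylation is known as a marker in cervical neoplasia, was overlapped by called tiles at 56880001 and 56890001. It covers the first tile only from 56887215 on, and both tiles also overlap ZNF542P, annotated as a noncoding RNA and a pseudogene. The first stood at 15.5% and 14.4% in WT and at 53.7% and 39.0% in ZNF274KO 1 and ZNF274KO 2, and the other at 43.2% and 43.6% in WT and at 80.4% and 71.4% (adjusted p = 0.00094 and 0.00123). In ZNF583, the KZFP gene between ZNF582 and ZNF667, the tile at 56930001 went from 24.5% and 34.0% to 62.0% and 54.1% (adjusted p = 0.0103). Within ZSCAN5A, a zinc finger gene with a SCAN domain, the tile at 56860001 went from 28.1% and 32.3% to 63.5% and 45.2% (adjusted p = 0.0488), the largest adjusted p of the 25 called tiles.

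**Figure D2:**
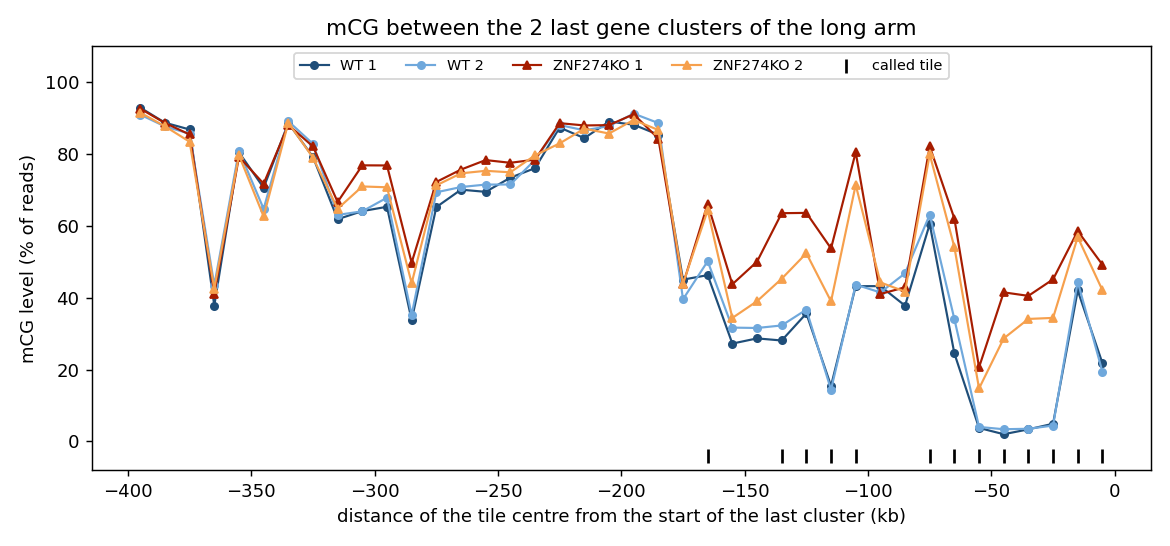
mCG level (% of reads) of each of the 40 tiles between the last 2 spans of the long arm, against the distance of the tile centre from the start of the last span in kb. Circles are the WT libraries, triangles the ZNF274KO libraries, and ticks at the foot mark the 13 called tiles, at which both triangles lie above both circles.

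Summed over whole genes, the bodies of 3 genes were called among 1049 outside the spans, all on the long arm and all higher, where 0.918% of 19829 gene bodies in the genome were called. ZNF667 stood at 22.2%, 25.1%, 52.7% and 47.5% in WT 1, WT 2, ZNF274KO 1 and ZNF274KO 2 over 462 CpGs (adjusted p = 9.85e-06). ZNF582 stood at 36.4%, 37.02%, 56.1% and 52.0% over 171 CpGs (adjusted p = 0.00806). The third was CEACAM20, a gene of the carcinoembryonic antigen family of adhesion molecules, at 18.3%, 20.2%, 41.6% and 30.99% over 268 CpGs (adjusted p = 0.00448). In all of them the ZNF274KO libraries lay clear of WT, and ZNF274KO 1 was the higher. Of the neighbouring zinc finger genes, ZNF583 had a difference of 10.5 points that did not pass (35.7%, 41.7%, 50.9% and 47.4%, adjusted p = 0.161), and ZSCAN5A, ZSCAN5B and ZSCAN5C had 5.67, 6.51 and 5.99 points (adjusted p = 0.234, 0.666 and 0.749).

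Promoters gave fewer calls than bodies. Of 1048 promoters outside the spans 1 was called, where 0.248% of 19749 promoters in the genome were. It was that of ZNF583, at 62.9% and 65.9% in WT and 88.2% and 84.1% in ZNF274KO 1 and ZNF274KO 2 over 30 CpGs (adjusted p = 0.0315). It was not called by limma, without ZNF274KO 1, or in the window of 500 bases either side. The promoter of CEACAM20 went from 26.2% and 31.5% to 54.9% and 47.6% and did not pass (adjusted p = 0.105), nor did that of ZSCAN5A, from 56.8% and 61.2% to 82.2% and 72.9% (adjusted p = 0.246). ZNF582 and ZNF667 showed no such difference at their starts. The ZNF582 promoter, with 90 CpGs, stood at 19.02% and 17.9% in WT and at 5.24% and 11.2% in ZNF274KO 1 and ZNF274KO 2 (adjusted p = 0.367), opposite in sign to its body, and the ZNF667 promoter, with 158 CpGs, at 70.2%, 65.6%, 66.2% and 68.3% in the 4 libraries (adjusted p = 0.995).

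The stretch from 35 to 35.5 Mb holds the zinc finger genes ZNF302, ZNF181, ZNF599, ZNF30 and ZNF792. Its pooled level was 46.4% in both WT libraries, 57.1% in ZNF274KO 1 and 50.9% in ZNF274KO 2, and both ZNF274KO libraries exceeded both WT libraries in 38 of its 50 tiles. The largest rise of all 3941 tiles was here, at 35240001 to 35250000, a tile that ends in the 3′ part of ZNF599. It stood at 8.99%, 12.3%, 60.7% and 46.4% in WT 1, WT 2, ZNF274KO 1 and ZNF274KO 2 over 60 CpGs, a difference of 42.9 points (adjusted p = 9.82e-05). The other 5 called tiles had differences of 14.6 to 23.3 points, and the genes they overlap are the pseudogene ZNF807P, SCGB2B2, which encodes a secretoglobin, and the noncoding LINC01801, LINC00904, LINC01838 and ZNF30-AS1.

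In contrast with the stretch over ZNF667, the bodies of the zinc finger genes here were not called. ZNF599 stood at 48.8%, 47.2%, 54.2% and 47.3% (adjusted p = 0.852), and ZNF181 at 43.7%, 42.1%, 39.1% and 42.8% (adjusted p = 0.895). ZNF302 had both ZNF274KO libraries below WT, at 51.5%, 50.9%, 47.8% and 39.8%, but did not pass (adjusted p = 0.692). ZNF30 and ZNF792 overlapped between the groups. Whether the bodies of these genes and those of the other stretch differed in response was not tested.

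Next to the span that ends at 45 Mb, the tile at 45030001 to 45040000, over the 5′ end of CEACAM20 and the bases before it, stood at 20.8%, 20.6%, 55.7% and 44.6% in WT 1, WT 2, ZNF274KO 1 and ZNF274KO 2 (adjusted p = 0.0003). The 2 other called tiles there, over or beside the pseudogene CEACAM22P, rose by 15.1 and 13.8 points. The whole 100 kb went from 38.9% and 38.8% to 52.4% and 46.4%. On the short arm, both called tiles lay 30 and 50 kb past the span that ends at 24.3 Mb, beyond ZNF254. The tile at 24330001 stood at 20.4%, 19.4%, 49.3% and 34.5% (adjusted p = 0.015) and the tile at 24350001 at 6.17%, 10.7%, 22.5% and 19.5% (adjusted p = 0.023). Neither was called by limma or without ZNF274KO 1. No gene of the annotation overlaps either tile.

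The single fall was at 30860001 to 30870000, inside ZNF536, a zinc finger gene known to restrain neuronal differentiation. It stood at 74.9%, 70.6%, 62.4% and 56.96% in WT 1, WT 2, ZNF274KO 1 and ZNF274KO 2 over 240 CpGs, a difference of -13.06 points (adjusted p = 0.0339), and it was not called with the levels centred on the genome-wide level, nor by limma, nor without WT 1 or ZNF274KO 2. The whole body of ZNF536, with 6720 CpGs, did not move with it, at 68.9%, 67.3%, 68.5% and 66.5% (adjusted p = 0.934).

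**Figure D3:**
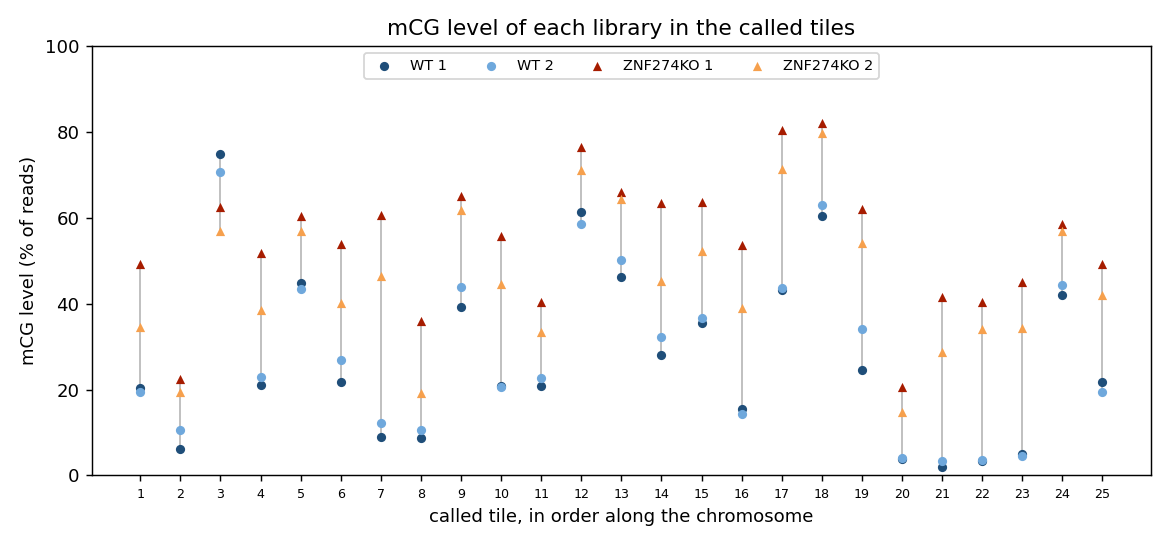
mCG level (% of reads) of the 4 libraries in each of the 25 called tiles, in their order along the chromosome (circles WT, triangles ZNF274KO, and a grey line from the lowest to the highest library). Tile 3 is the fall in ZNF536, and in the other 24 ZNF274KO 1 lies above ZNF274KO 2 and both above WT.

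The 24 tiles that rose are described here by their size, position and composition. In all 24, ZNF274KO 1 stood above ZNF274KO 2. The rises, which chose the tiles, ran from 12.6 to 42.9 points with a median of 22.3, and the WT mean was under 50% in 22 of them. Of the 24, 13 overlapped a zinc finger gene and 23 lay within 100 kb of one, and the farthest was 128544 bases away. Of all 3941 tiles, 179 overlapped a zinc finger gene and 633 lay within 100 kb. The median GC content was 41.0% for the 2 risen tiles of the short arm and 40.6% for the 22 of the long arm, where the other tiles had medians of 52.2% and 48.6%. They also held fewer CpGs, with medians of 90 and 82 against 230 and 167, and a lower WT level, 14.2% and 23.1% against 72.9% and 67.9%. Since a rise is bounded by the level in WT, the lower WT level and the rise are not independent.

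Distance from a span and from a zinc finger gene were looked at over all tiles. Within 100 kb of a span 13 of 170 tiles rose, from 100 to under 500 kb 5 of 490, from 500 kb to under 1 Mb none of 474, and at 1 Mb or more 6 of 2807, all of them in the stretch at 35 Mb. Among tiles that overlap a zinc finger gene 13 of 179 rose, within 100 kb 10 of 454, from 100 kb to under 1 Mb 1 of 2356, and at 1 Mb or more none of 952. The 270 long-arm tiles at 1 Mb or more from any zinc finger gene had a median difference of 2.37 points and both ZNF274KO libraries above WT in 40.0%. Their pooled levels of 46.04%, 45.2%, 47.8% and 46.4% did not overlap between the groups either, and none of these tiles was called.

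The difference also varied with base composition. Long-arm tiles of under 42% GC stood at 45.7%, 45.2%, 48.8% and 46.4% in WT 1, WT 2, ZNF274KO 1 and ZNF274KO 2, so that both ZNF274KO libraries lay above WT, with a difference of 2.17 points over 302 tiles. In the 4 classes of higher GC content the groups overlapped, and the difference went from 1.63 points at 42 to under 46% to -0.623 at 55% or more. On the short arm it went from 1.99 points under 42% to -0.787 at 55% or more, with overlap in all 5 classes. Of the 25 called tiles 15 had under 42% GC and none had 50% or more. The long-arm class under 42% held 13 of them among its 302 tiles. The differences by class include the called tiles and were not recomputed without them.

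The gene lists follow textbook roles but were drawn up with earlier results of these data known, so their counts are descriptions. Of 39 zinc finger gene bodies outside the spans 2 were called, those of ZNF667 and ZNF582, where 0.918% of all gene bodies were. The median difference was 0.10 points. Both ZNF274KO libraries were above WT in 12 of the 39 and below in 6, where 9.09% of all gene bodies were above and 30.6% below. Those above included ZSCAN5A, ZSCAN5B, ZSCAN5C, ZNF582, ZNF583 and ZNF667, all in the stretch from 56.6 to 57 Mb that was picked for its rises. The others above were ZNF554, ZNF556, ZNF358, ZNF558, ZFP36 and ZNF575. In 81 bodies of smaller tandem families, such as the CEACAM, CYP2, CYP4F and olfactory receptor genes, the median was 0.87 points. Both ZNF274KO libraries were above WT in 18 of the 81 and below in 15. Of the 81, 1 was called, CEACAM20. Among those that were not called, OR10H2, an olfactory receptor gene, stood at 37.7%, 29.9%, 25.9% and 22.6% in WT 1, WT 2, ZNF274KO 1 and ZNF274KO 2 (adjusted p = 0.661).

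No body was called among 19 genes of the methylation and chromatin machinery, 10 ribosomal protein genes, 25 developmental regulators or 21 genes mostly of the cell cycle, DNA repair and signalling, some with other roles. Their median differences were -0.71, 0.34, -0.32 and -0.95 points, where the median over all gene bodies was -0.93. Both ZNF274KO libraries lay above WT in 1, 2, 4 and 3 genes of these lists and below in 6, 3, 7 and 4, where 9.09% of all gene bodies were above and 30.6% below. The largest difference among the machinery genes was in SIRT2, a deacetylase, at 72.7%, 72.9%, 71.2% and 70.3%. Of the developmental regulators KLF1, a factor of red blood cell development, stood at 72.6%, 76.2%, 79.5% and 83.2%, and of the last list UQCRFS1, a subunit of respiratory complex III, at 33.3%, 27.7%, 41.1% and 37.3%. Neither passed the test (adjusted p = 0.438 and 0.573). SIRT6, the ribosomal RPS16, CEBPA and PLEKHF1 differed by 2.003, 4.08, 4.58 and -3.85 points, and none of them passed either.

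At promoters the zinc finger list held the 1 call named above, ZNF583, and the other lists none. Both ZNF274KO libraries lay above WT in 12 of 39 zinc finger promoters and below in 14, where 14.2% and 20.8% of all promoters did so. Promoters of the machinery genes had a median WT level of 4.76%. Each window was set at the outermost annotated start of its gene, and other starts of a gene were not looked at. The window of UHRF1, a partner of the maintenance methyltransferase, held 37 CpGs and was at 89.3% in both WT libraries. Whether it covers the start that is used in these cells was not tested. The largest difference among the machinery promoters was -2.39 points, in SMARCA4, the ATPase of a chromatin remodelling complex, at 5.39%, 5.65%, 2.40% and 3.85%.

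The number of calls varied with the fit and with the libraries in it. Of the 25 called tiles, 25 were also called without WT 2, 24 without WT 1, 23 without ZNF274KO 2 and 12 without ZNF274KO 1, and 5 were called by limma. In these fits the long arm had 54, 65, 47, 12 and 5 calls in all, and the short arm 4, 3, 5, 0 and 1. Gene bodies went from 3 calls to 1 without ZNF274KO 1 and to 5 without WT 1, and limma called 2, of which 1 was higher. Promoters went from 1 call to 3 without WT 1, 3 without WT 2 and 4 without ZNF274KO 2, and no promoter was called without ZNF274KO 1, by limma or within 500 bases of the start. A fit without a library has 1 library in that group, which is assumed to vary like the other group, so its counts also reflect the spread of the group left whole. For limma and the fits without a library, the share called over the whole genome is not given here.

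The second comparison asked whether the arms were covered alike. Reads are scaled to 1000000 reads of the same library on the autosomes and X. The short-arm tiles took 15018 and 15111 in WT 1 and WT 2, and 14972 and 14063 in ZNF274KO 1 and ZNF274KO 2. The long-arm tiles took 12752 and 12682 in WT 1 and WT 2 but 9798 and 10447 in ZNF274KO 1 and ZNF274KO 2. ZNF274KO over WT was thus 0.964 on the short arm and 0.796 on the long arm, with both ZNF274KO libraries below both WT libraries on either arm (exact permutation test, p = 0.333, the smallest possible). The short-arm value came mostly from ZNF274KO 2, at 0.934, since ZNF274KO 1 was at 0.994. On the long arm ZNF274KO 1 and ZNF274KO 2 were both low, at 0.770 and 0.821, while WT 2 over WT 1 was 0.995. With correction for GC content, ZNF274KO 1 and ZNF274KO 2 were at 0.973 and 0.898 on the short arm. ZNF274KO over WT was then 0.935 on the short arm and 0.778 on the long arm.

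The ratio of long-arm to short-arm reads sets the arms against each other within a library. It was 0.849 and 0.839 in WT 1 and WT 2, and 0.654 and 0.743 in ZNF274KO 1 and ZNF274KO 2, and the difference between the arms themselves did not overlap between the groups (exact permutation test of the log2 ratio, p = 0.333). Inside the spans ZNF274KO over WT was 1.03 on the short arm and 0.876 on the long arm. By the mean of the ZNF274KO libraries, chromosome 19 as a whole had the lowest ratio of the 23 chromosomes, 0.894. The other 22 ran from 0.902 on chromosome 6 to 1.06, with 3 of them below 0.96. In ZNF274KO 1 chromosome 6 was the lower of these 2, at 0.886 against 0.901. In ZNF274KO 2 chromosome 19 was the lower, at 0.887 against 0.918. These libraries are from bulk DNA, so fewer copies in every cell and a loss in some of the cells cannot be told apart by depth. The paper describes HEK293T cells as triploid. It also states that WT and ZNF274KO clones were karyotyped by array before an imaging experiment, so that their ploidy would be consistent. Whether these libraries came from those clones is not given, and copy number was not tested here.

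Tile by tile the shift was broad on the long arm, though its size varied along it. Both ZNF274KO libraries were below both WT libraries in 1950 of 2127 long-arm tiles (91.7%) and above in none. On the short arm they were below in 549 of 1814 tiles (30.3%) and above in 83 (4.58%). Of all tiles in the genome 19.1% were below and 20.6% above. The median tile ratio was 0.781 on the long arm (quartiles 0.745 and 0.828) and 0.962 on the short arm (0.924 and 1.003). In the quasi-likelihood test of edgeR on reads per tile no tile of either arm was called at an adjusted p under 0.05, where 0.00354% of all tiles were. At an unadjusted p under 0.05, 1788 long-arm tiles (84.1%) and 81 short-arm tiles (4.47%) were lower in ZNF274KO, where 7.58% of all tiles were. DESeq2 called 263 long-arm tiles and 1 short-arm tile, and the share of all tiles that it called is not given here. Without WT 1, WT 2, ZNF274KO 1 or ZNF274KO 2 in turn, the ratio over the whole long arm was 0.798, 0.794, 0.821 and 0.770. Over the short arm it was 0.961, 0.967, 0.934 and 0.994.

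The tiles nearest to a call had moderate ratios. That at 38880001 on the long arm, in SPRED3, had 2361, 2284, 1430 and 1273 reads in WT 1, WT 2, ZNF274KO 1 and ZNF274KO 2, a ratio of 0.616 (log2 -0.70, SE 0.091, adjusted p = 0.0654 in edgeR). That at 39930001, in SUPT5H, which encodes a transcription elongation factor, had a ratio of 0.654 (adjusted p = 0.0934). On the short arm the lowest p was at 16730001, over MED26, with 3339, 2972, 2359 and 2128 reads and a ratio of 0.756 (adjusted p = 0.148).

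**Figure D4:**
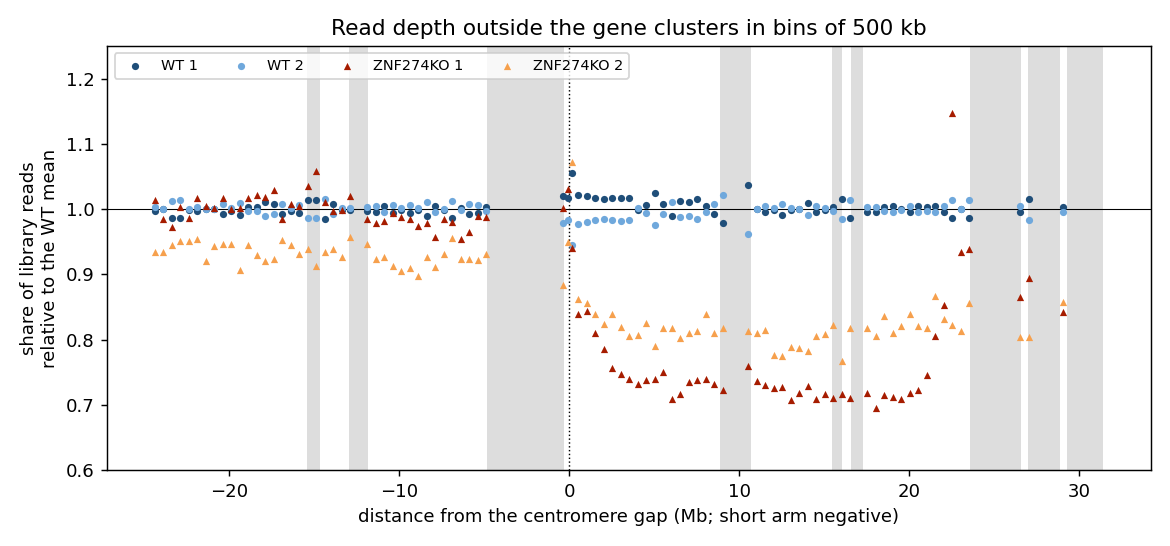
Share of library reads in the tiles outside the clusters, summed in bins of 500 kb and divided by the WT mean of the bin, against distance from the centromere gap in Mb, with the short arm negative. Circles are WT libraries and triangles ZNF274KO libraries, grey bands are the spans left out, and the vertical axis starts at 0.6. On the long arm the triangles fall away from 1 within about 3 Mb of the gap, and those of ZNF274KO 1 come back up towards the right.

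The plot of depth along the arms shows the form of the shift. In bins of 500 kb with at least 20 tiles, the short arm stayed between 0.954 and 1.04 of the WT mean in ZNF274KO 1 and between 0.883 and 0.957 in ZNF274KO 2. From 31 to 48 Mb the long arm was flat at a lower level, from 0.696 to 0.750 over 29 bins in ZNF274KO 1 and from 0.767 to 0.839 in ZNF274KO 2, where the WT libraries stayed between 0.976 and 1.02. Nearer to the centromere depth was higher. In ZNF274KO 1 and ZNF274KO 2 it was 0.840 and 0.862 at 28 to 28.5 Mb, 0.810 and 0.840 at 29 to 29.5 Mb, and 0.757 and 0.840 at 30 to 30.5 Mb. In this stretch WT 1 and WT 2 differed too, by 1.02 against 0.976 from 27.7 to 31 Mb.

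Towards the end of the arm the ZNF274KO libraries parted. From 50 to 50.5 Mb ZNF274KO 1 was at 1.15 and ZNF274KO 2 at 0.823, and from 50.5 to 51.3 Mb they were at 0.936 and 0.830. Between the last spans, from 56.6 to 57 Mb, they were at 0.842 and 0.858. In the 40 tiles there, which hold the rises over ZNF667 and ZNF582, depth was thus nearer to WT than over most of the arm.

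Per tile, ZNF274KO 1 changed its depth in steps that ZNF274KO 2 and WT did not show. From 49.8 to 49.91 Mb it was at 0.789 of the WT mean (11 tiles, 0.739 to 0.874), from 49.91 to 50.3 Mb at 1.03 (39 tiles, 0.889 to 1.18), and from 50.3 to 50.45 Mb at 1.28 (15 tiles, 1.19 to 1.42). The highest step, from 50.45 to 50.52 Mb, was at 1.46 (7 tiles, 1.35 to 1.56), and from 50.52 to 50.7 Mb the depth was back at 0.923. ZNF274KO 2 stayed between 0.800 and 0.828 in these 5 segments, and each WT library within 0.974 to 1.03. The highest step covers the sialic acid receptor genes SIGLEC11 and SIGLEC16 and part of VRK3, a kinase gene, and the one before it holds MED25, NUP62 and ATF5. The segments were drawn after the values were seen and were not tested.

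**Figure D5:**
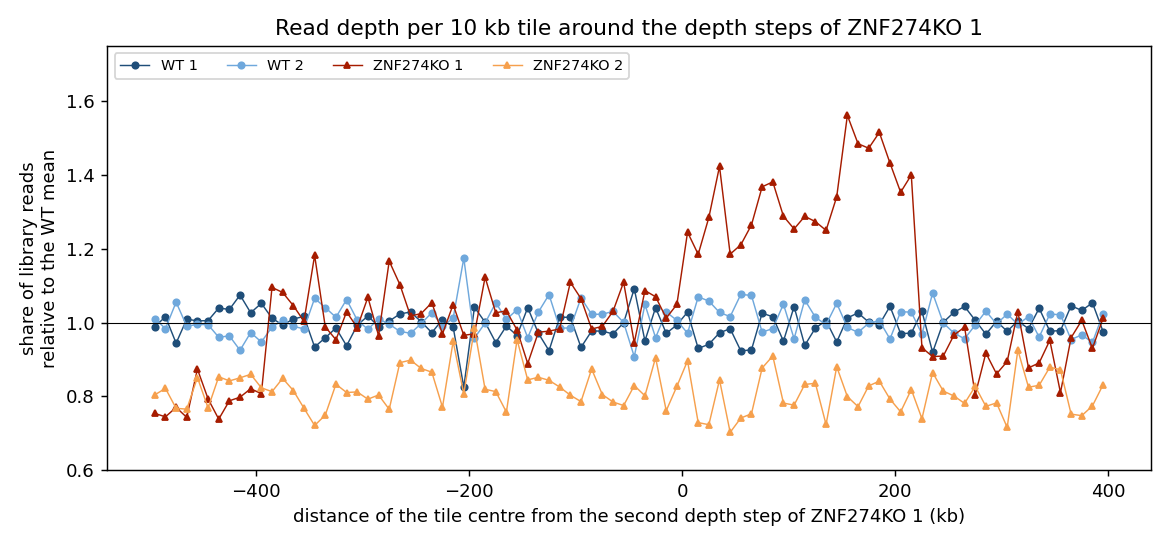
Share of library reads per 10 kb tile, divided by the WT mean of the tile, against the distance of the tile centre in kb from the step of ZNF274KO 1 at 50.3 Mb. Circles are WT libraries and triangles ZNF274KO libraries, and the vertical axis starts at 0.6. ZNF274KO 1 rises from 0.789 through 1.03 and 1.28 to 1.46 and drops to 0.923, while ZNF274KO 2 stays near 0.8.

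Depth and mCG were set side by side. A shift in depth changes the precision of a level, and whether it goes with a change of the level itself was not tested. From 31 to 48 Mb, where depth was lowest, the levels were 65.9%, 65.0%, 66.7% and 64.6% in WT 1, WT 2, ZNF274KO 1 and ZNF274KO 2, with overlap. In the next stretches both ZNF274KO libraries lay below WT, at 71.9%, 70.9%, 70.8% and 69.9% from 48 to 50 Mb and at 73.0%, 71.3%, 70.9% and 71.01% from 50 to 50.5 Mb. These stretches were drawn after values were seen and were not tested. Across tiles, the depth ratio and the mCG difference had a Pearson r of -0.091 (Spearman rho -0.073) over the 1814 short-arm tiles and of 0.013 (0.035) over the 2127 long-arm tiles, as a description, since neighbouring tiles share libraries and base composition. The 22 risen long-arm tiles had a median depth ratio of 0.819, from 0.645 to 0.955, and the other long-arm tiles one of 0.781. The 2 risen short-arm tiles were at 0.891 and 0.895, and the tile that fell, at 30860001, was at 0.798. Median reads per tile ranged from 1799 to 2350.5 across libraries on the short arm and from 1106 to 1695 on the long arm, so levels of single tiles were more precise on the short arm. The part that depth has in the tile calls was not tested.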

How the data were processed

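EM-seq of WT and ZNF274KO HEK293T cells gave 2 libraries per group, as labelled. Msuite2 with HISAT2, on hg19 plus rDNA, made the calls, and the authors deposited counts of C and T reads per CpG, strand and library, neither pooled nor normalised. How duplicates and poorly mapped reads were treated is not given in the sources used here. A read over several CpGs counts at each, so precision is lower than the counts imply. The members and gene lists were chosen with earlier results of these data known.

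Counts were summed over 10 kb tiles, gene bodies and promoters (GENCODE 44 on GRCh37). Regions needed 20 reads in every library and 5 CpGs. Methylated and unmethylated counts were tested with edgeR 4.0.16 in R 4.3.3 (quasi-likelihood, a coefficient per library, methylation log-odds per group, Benjamini-Hochberg over the genome). Depth per tile was tested likewise with library size set to reads on autosomes and X. Pooled values were compared by exact permutation. Both fits were also run on simulated counts, in which single regions were changed independently and no whole arm was shifted. That run does not bear on the calls reported here. Alternatives were limma 3.58.1 (pseudocount 1), DESeq2 1.42.0 for depth, TMM, GC correction, other minimums, strands, a replicate block, and each library left out. Sums and figures came from pandas 2.3.3, numpy 2.4.6 and matplotlib 3.10.9 under Python 3.11.15, and permutations from scipy 1.17.1.

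Named regions were the 10 largest rises and falls among called tiles and gene bodies, the 5 among promoters, with the groups apart and at least 20, 50 and 10 CpGs, and the list genes with the largest differences. The rule asked for called depth tiles, and as none was called, tiles with the lowest p are given. Other named regions, the stretches and the depth segments were chosen after their values were seen. RPS6K kinases were left out of the ribosomal list, and the prefix OR was read as OR and a digit. Differences between same-numbered libraries had a correlation of -0.134 for mCG and 0.049 for depth across tiles, so the numbers were not taken as pairs. A few items are not reported here.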

Additional observations from a re-analysis of the deposited data

How the results depend on the processing

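Of 112 values recomputed under alternatives, 73 kept their direction and stayed within 1.5 times of a count, 34 counts moved further and 5 differences changed sign. Reversals were confined to the pooled mCG differences. Relative to the genome-wide level the short-arm difference was 0.190 points and the long-arm one 0.766, and as an unweighted mean of tiles they were -0.019 and 1.04. Leaving out a library gave -1.23 to 0.529 points on the short arm and -0.756 to 1.21 on the long arm. Tiles called for mCG on the short arm numbered 1 with limma, 4 when centred and 1 with 3 reads per CpG, and 0 to 5 with a library left out. On the long arm limma called 5, and leaving out a library gave 12 to 65. Gene bodies ranged from 1 to 5 without a library and numbered 2 with limma, 1 of them higher. Promoters went to 0 with limma and to 0 within 500 bases, and from 0 to 4 without a library. For depth, DESeq2 called 1 tile on the short arm and 263 on the long arm, and leaving out a library gave 0 to 5 and 0 to 890. With the replicate number as a block, mCG calls were 12 and 63 tiles, 7 gene bodies and 7 promoters, and depth calls 0 and 215. Of these mCG calls 8, 55, 5 and 4 were higher in ZNF274KO and the rest lower. No source says that the numbers mark a shared batch. Crossed pairing, added after seeing the data, gave 6 and 63 tiles, 6 gene bodies and 6 promoters, of which 6, 59, 4 and 4 were higher. For each of these changes the cause was not tested, and the share called over the whole genome is not given for these alternatives. The 2 libraries per group cannot pass an exact test, and counting error covers reads, not cultures.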

Other observations

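Over the 7 tiles from 50.45 to 50.52 Mb, where ZNF274KO 1 had its highest depth, the mCG level was 82.0% and 80.8% in WT 1 and WT 2, and 74.3% and 79.7% in ZNF274KO 1 and ZNF274KO 2. In the 15 tiles before it, from 50.3 to 50.45 Mb, the levels were 67.2%, 65.5%, 64.8% and 65.5% in the same order, and in the 18 tiles after it 68.4%, 69.0%, 69.7% and 67.8%. These segments were chosen for their depth and the values were not tested.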
